A study of Homo sapiens with 6 samples.

Results

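Transcripts of 46 genes of glucose uptake, glycolysis, lactate handling and the hypoxia-inducible factor (HIF) pathway were measured in HT1080 cells exposed to either of 2 inhibitors of the deacetylase KDAC6 (HDAC6). The genes were taken by name from the deposited table of 60675 gene rows, and each of the 46 matched 1 row. Of these, 44 had enough reads to test, among 16905 tested genes in all. HT1080 is an established human fibrosarcoma line, labelled wild type here, and 3 libraries were made from cells given SW-138 and 3 from cells given SW-113, each at 1 µM for 48 h in medium with fetal bovine serum. The series was designed to assess how selective such inhibitors are. The groups hold no vehicle or untreated cells, so for a gene lower in SW-138 an action of SW-138 and an opposite action of SW-113 cannot be told apart. In bulk RNA, fewer cells with a transcript and less of it per cell cannot be told apart either. The labels do not say whether the replicates were separate cultures, and the p-values therefore rest on a library-to-library spread that may be technical.

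Glycolysis splits glucose into pyruvate in a preparatory phase that spends ATP and a payoff phase that returns it, and lactate dehydrogenase then converts pyruvate to lactate. HIF is a pair of proteins, an oxygen-labile alpha subunit (HIF1A or EPAS1, also called HIF-2 alpha) and the stable partner ARNT. In the presence of oxygen the EGLN prolyl hydroxylases mark the alpha subunit for the VHL ubiquitin ligase, and HIF1AN blocks its coactivators. When oxygen is low HIF binds the core letters ACGTG or GCGTG near its targets, which include most glycolytic enzymes, VEGFA, CA9 and BNIP3. Many tumour lines use glycolysis heavily even in air.

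Promoter windows of 300 bases around the RefSeq start (build GRCh38.p14) were available for 38 of the 46 genes, in 69 windows. The motifs ACGTG and GCGTG were searched on both strands, where they read CACGT and CACGC on the opposite strand. ACGTG also lies within the E-box CACGTG, so the searches overlap there. At least 1 match was present in 47 of the 69 windows (68.1%), against 59.5% of the 15639 windows of tested genes and 48.4% of all 35116 windows. Some genes have several windows, which can overlap, so windows are not independent. Counted by gene, 34 of 38 members (89.5%) had a match in at least 1 window. The share was 69.1% of 10678 tested genes and 52.4% of all 27305 genes with windows. A gene with more windows has more room for a match. A match describes the letters only. The windows are shown for the 4 members with a single window that were lower in SW-138, and for CA9, a widely used HIF target for which no difference was shown. Each reads 5′ to 3′ on the gene's strand, 250 bases before the start and 50 after it, with motif letters in capitals.
EPAS1, chr2:46297157-46297456, plus strand: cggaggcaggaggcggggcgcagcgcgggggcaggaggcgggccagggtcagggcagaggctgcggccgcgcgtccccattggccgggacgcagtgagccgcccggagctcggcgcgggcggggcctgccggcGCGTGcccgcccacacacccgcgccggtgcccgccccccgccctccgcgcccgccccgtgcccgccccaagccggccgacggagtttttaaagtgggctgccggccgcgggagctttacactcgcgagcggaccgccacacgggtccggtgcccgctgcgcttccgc
BNIP3, chr10:131981874-131982173, minus strand: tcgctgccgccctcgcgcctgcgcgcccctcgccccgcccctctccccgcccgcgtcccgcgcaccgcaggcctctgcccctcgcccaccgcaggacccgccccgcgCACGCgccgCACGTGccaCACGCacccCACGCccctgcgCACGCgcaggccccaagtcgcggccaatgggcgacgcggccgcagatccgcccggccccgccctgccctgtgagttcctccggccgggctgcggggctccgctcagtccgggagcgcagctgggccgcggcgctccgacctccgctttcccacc
EGLN1, chr1:231422238-231422537, minus strand: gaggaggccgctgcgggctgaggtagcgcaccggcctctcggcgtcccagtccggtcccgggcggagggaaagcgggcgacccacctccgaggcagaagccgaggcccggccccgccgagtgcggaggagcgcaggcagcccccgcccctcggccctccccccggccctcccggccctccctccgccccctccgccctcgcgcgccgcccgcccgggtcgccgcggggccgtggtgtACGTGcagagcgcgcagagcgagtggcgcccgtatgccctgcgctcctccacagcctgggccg
PFKFB4, chr3:48556754-48557053, minus strand: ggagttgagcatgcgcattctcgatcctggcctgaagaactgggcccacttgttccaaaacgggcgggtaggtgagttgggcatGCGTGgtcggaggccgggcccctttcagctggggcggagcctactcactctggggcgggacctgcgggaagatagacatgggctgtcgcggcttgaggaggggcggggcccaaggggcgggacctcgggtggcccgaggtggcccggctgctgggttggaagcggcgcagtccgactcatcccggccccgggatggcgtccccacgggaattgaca
CA9, chr9:35673678-35673977, plus strand: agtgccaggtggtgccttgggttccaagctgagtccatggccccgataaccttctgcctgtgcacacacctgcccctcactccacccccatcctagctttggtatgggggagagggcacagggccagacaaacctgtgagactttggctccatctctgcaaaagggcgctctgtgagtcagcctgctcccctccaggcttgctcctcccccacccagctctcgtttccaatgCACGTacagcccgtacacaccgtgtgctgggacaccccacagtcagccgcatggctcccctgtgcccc
The EPAS1, EGLN1, PFKFB4 and CA9 windows each held 1 match. BNIP3 held 6, of which 2 were the opposite strands of a single E-box.

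Libraries held 32771670 to 50871623 estimated read counts. The 46 genes together took 1.96% ± 0.0190 of the counts with SW-138, against 1.94% ± 0.0335 with SW-113 (SD, n = 3 each). The 15 glycolytic enzymes alone took 1.27% ± 0.0377 with SW-138, against 1.29% ± 0.0310 with SW-113. The fibroblast markers VIM, FN1, CD44, CALD1 and LGALS1 were above 1 CPM (counts per 1000000 of the library total after scaling by its TMM factor) in every library, while S100A4 averaged 0.717 CPM under SW-138, against 0.975 CPM under SW-113. All 8 haematopoietic and endothelial markers stayed below 1 CPM, as did 4 of 5 epithelial markers, the exception being KRT18. The signal recognition particle RNA RN7SL1 took 2.14% to 2.88% of the counts with SW-138 and 3.72% to 4.39% with SW-113. Leaving such RNAs and the mitochondrial genes out gave 7 called members, 1 higher and 6 lower, where the full table gave 6, beside 7.02% of all genes then tested (2.91% higher, 4.12% lower).

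Levels were compared between genes as CPM per kilobase of the longest annotated transcript. On that scale GAPDH, which starts the payoff phase, was the most abundant member, at 2034 ± 65.7 with SW-138, against 2180 ± 75.6 with SW-113. The enolase ENO1 followed, at 946 ± 31.2 under SW-138 and 947 ± 27.7 under SW-113, and then the pyruvate kinase PKM, at 797 ± 38.4 under SW-138 and 818 ± 16.6 under SW-113 (SD, n = 3 each). ALDOA led the preparatory enzymes and LDHB stood beside LDHA. Among glucose transporters SLC2A1 lay above SLC2A3, at 45.1 ± 7.53 against 18.4 ± 2.16 with SW-138, and 42.7 ± 4.84 against 17.3 ± 1.33 with SW-113. HIF1A lay above EPAS1 and ARNT, at 263 ± 9.95 with SW-138, against 242 ± 8.14 with SW-113. The lowest tested member was the hydroxylase EGLN3, at 0.0842 ± 0.0413 with SW-138, against 0.118 ± 0.0205 with SW-113. The hormone gene ADM and the lipase inhibitor gene ANGPTL4 were not tested: ADM had 2, 2 and 1 counts with SW-138, against 1, 0 and 2 with SW-113, and ANGPTL4 had 0 in each SW-138 library and 0, 3 and 2 with SW-113. Both lay at or under the 3 counts per library that a count of 0 allows for, so no fold is given.

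**Figure D1:**
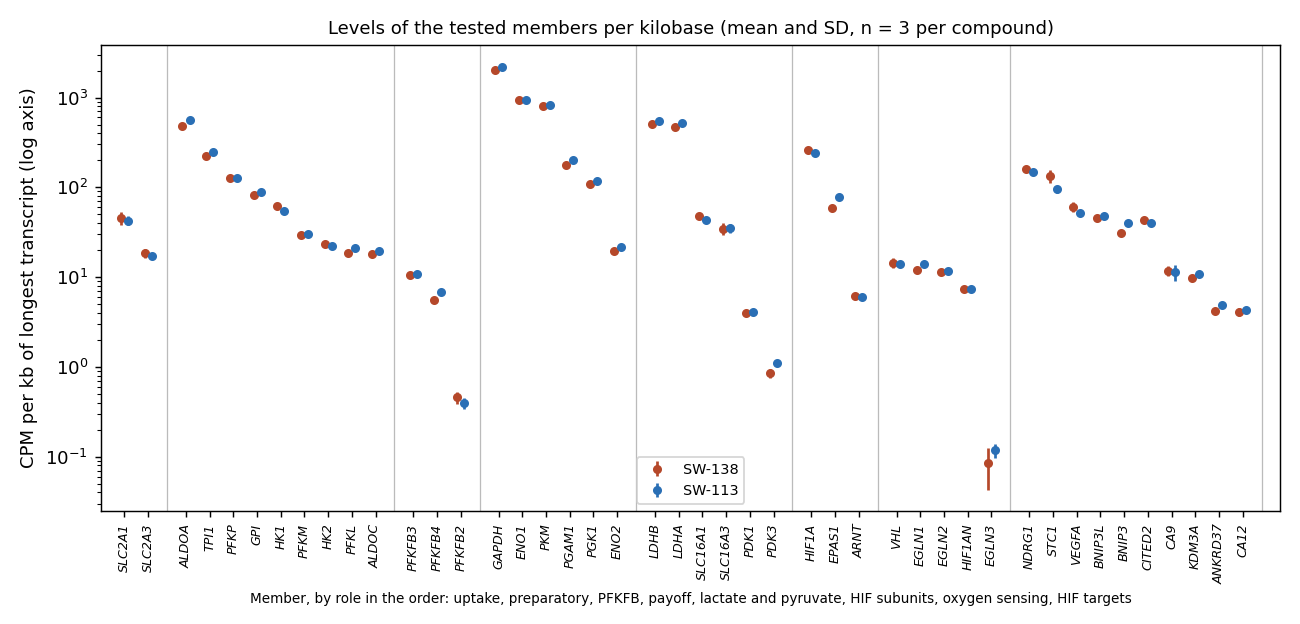
Mean level of the 44 tested members as CPM per kilobase of the longest transcript on a log axis, with SD as bars (n = 3 per compound), SW-138 at the left of each pair and SW-113 at the right, grouped by role. GAPDH stands highest, at 2034 under SW-138 and 2180 under SW-113, and EGLN3 lowest, at 0.0842 under SW-138 and 0.118 under SW-113.

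Of the 44 tested members, 1 was higher in SW-138, 5 were lower and 38 did not pass (edgeR quasi-likelihood test, Benjamini-Hochberg adjusted p under 0.05 over all 16905 genes). That is 13.6% of the members, beside 6.82% of all tested genes (2.76% higher, 4.06% lower). The lower members were EPAS1, BNIP3, EGLN1, PFKFB4 and ALDOA, and the higher one was STC1. All changes were below 1.5-fold. The median log2 fold change, SW-138 minus SW-113, was -0.062 over the members and 0.0074 over all tested genes, and 30 of the 44 members lay below 0 (68.2%), beside 48.5% of all tested genes. The 3 libraries of each compound did not overlap in 23 members (52.3%), 5 higher and 18 lower, beside 27.9% of all tested genes (12.4% higher, 15.4% lower). The members' median standard error was 0.055 on the log2 scale and that of all tested genes 0.092, and its part in these shares was not tested. With scaling by total count alone, 3 members were higher and 2 lower, beside 7.69% of all tested genes (5.46% higher, 2.23% lower), and the median of the members was 0.0012, where that of all tested genes was 0.071. With the replicate number as a block, 5 members were higher and 8 lower, beside 14% of all tested genes (6.47% higher, 7.51% lower).

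**Figure D2:**
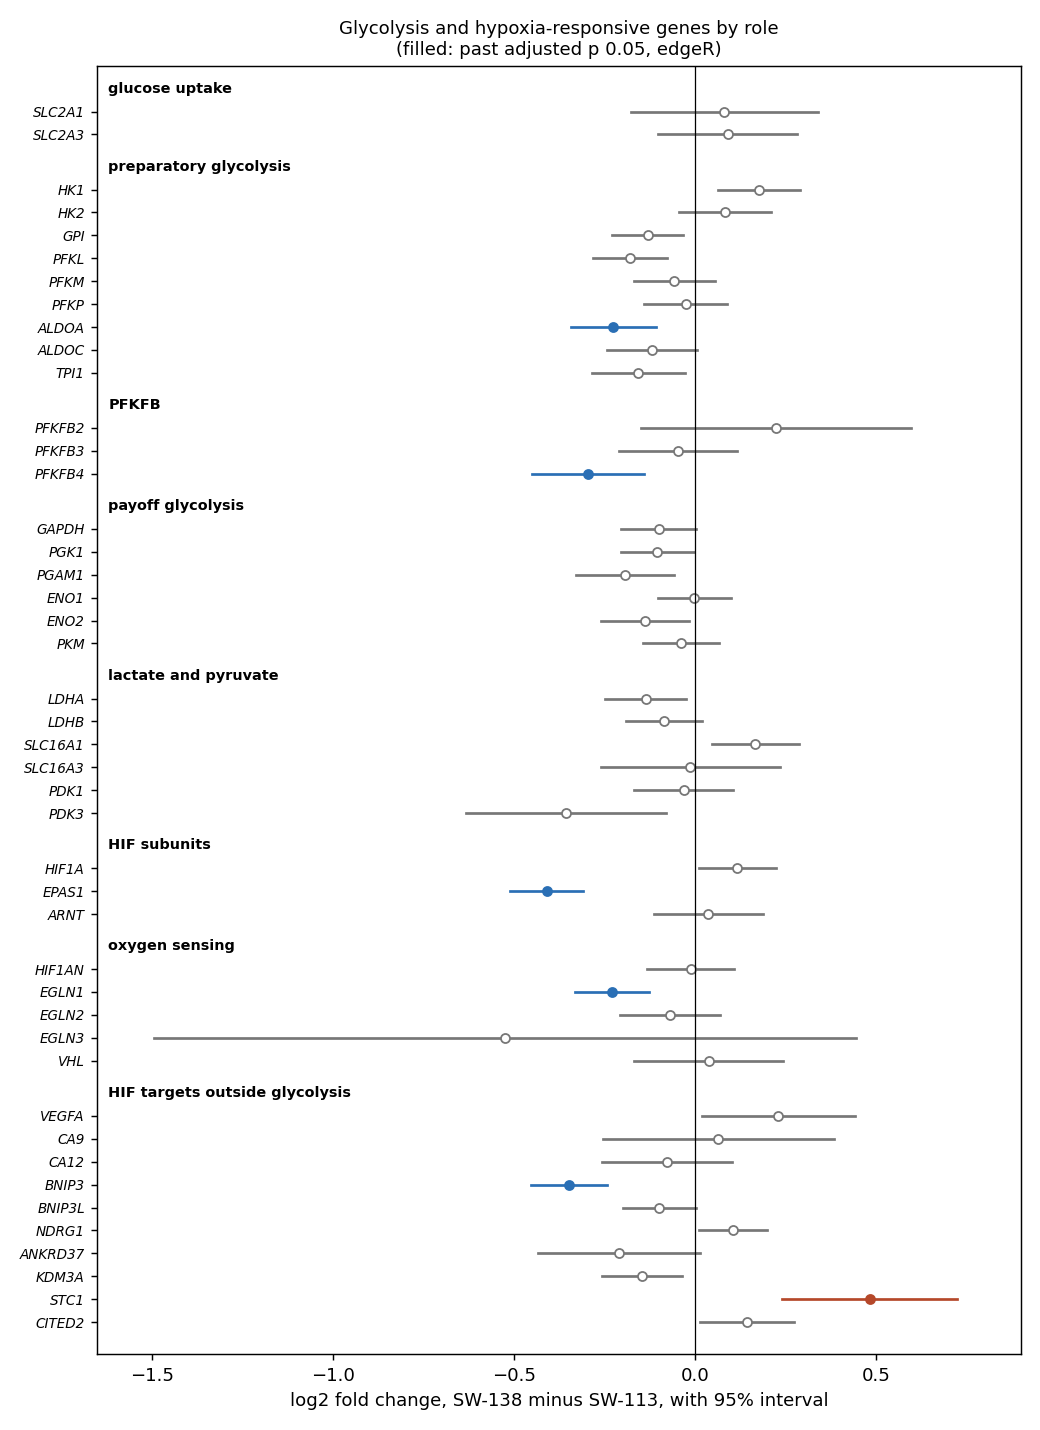
Log2 fold change, SW-138 minus SW-113, with its 95% interval for the 44 tested members by role, filled where the adjusted p was under 0.05. EPAS1 (-0.41), BNIP3 (-0.35), PFKFB4 (-0.29), EGLN1 (-0.23) and ALDOA (-0.23) are filled at the left of 0 and STC1 (0.48) at the right.

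Among the HIF subunits EPAS1 was lower in SW-138, while HIF1A and ARNT were not shown to differ. EPAS1 (ENSG00000116016, GRCh38 chromosome 2, 46293667 to 46386703) was at 309, 298 and 294 CPM under SW-138, against 391, 412 and 393 CPM under SW-113. Every SW-138 library lay below every SW-113 library, with a gap wider than the range within either group. This is a 1.33-fold lower level, or -0.41 ± 0.05 (SE) on the log2 scale (edgeR, Benjamini-Hochberg adjusted p = 0.0024). It was called in each of the 6 fits that left out a library (-0.43 to -0.39). HIF1A (ENSG00000100644, chromosome 14) was at 1053, 1071 and 995 CPM under SW-138, against 930, 993 and 951 CPM under SW-113. Its SW-138 libraries all lay above the SW-113 ones, by a small margin. At 0.12 ± 0.05 on the log2 scale, it did not pass (edgeR, unadjusted p = 0.0523, Benjamini-Hochberg adjusted p = 0.229). Its interval of 0.01 to 0.22, like the others given, rests on the limma-voom standard error and need not match the edgeR p. ARNT was at 0.04, with an interval of -0.11 to 0.19.

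The ratio of 2 genes within a library does not depend on scaling between libraries. Per library, the HIF1A to EPAS1 count ratio was 3.41, 3.59 and 3.39 with SW-138, against 2.38, 2.41 and 2.42 with SW-113. The log2 ratio was 0.53 higher with SW-138, at 1.79 ± 0.0461 under SW-138, against 1.27 ± 0.0117 under SW-113 (SD, n = 3 each). An exact two-sided permutation test gave p = 0.1, the smallest that 3 against 3 libraries allow. The ratios were chosen after the members' values were seen, and 16 pairs were computed, with exact permutation p-values adjusted by Benjamini-Hochberg no lower than 0.16. In 10 of the 16 pairs the groups did not overlap, and no share over other gene pairs was computed. Taken singly, 52.3% of the tested members and 27.9% of all tested genes did not overlap.

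**Figure D3:**
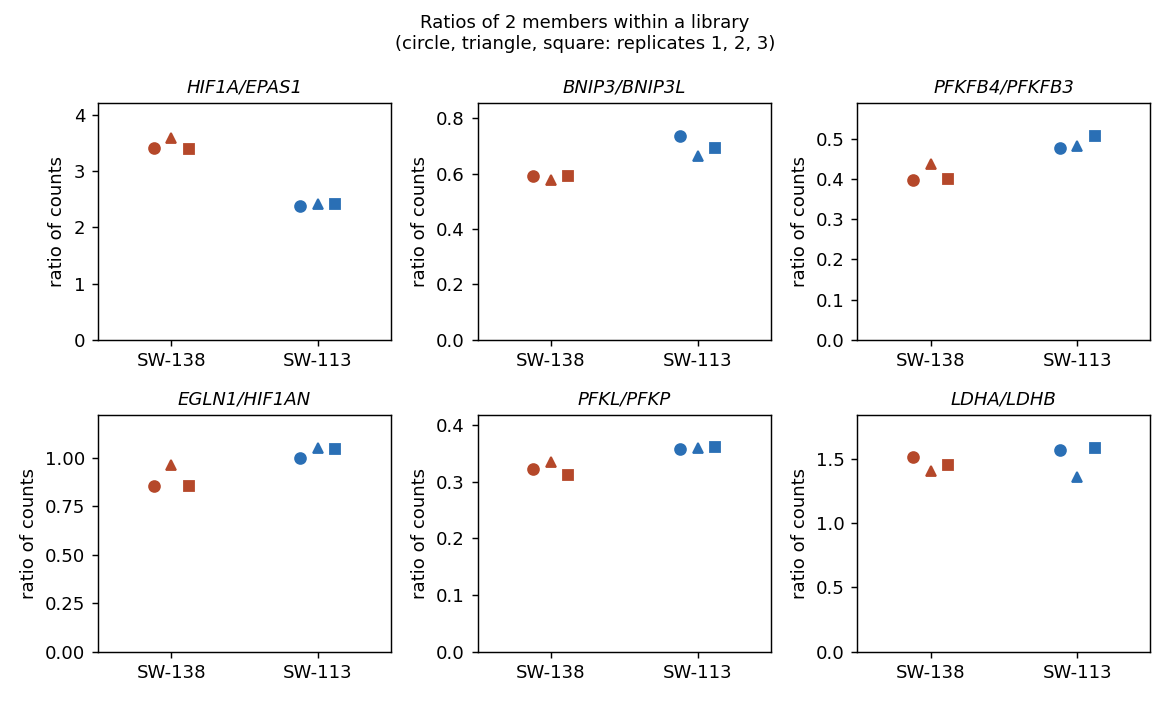
Ratio of the estimated counts of 2 members within each library, SW-138 at the left and SW-113 at the right, with a point per library and axes from 0. HIF1A/EPAS1 is 3.39 to 3.59 with SW-138 and 2.38 to 2.42 with SW-113, while the LDHA/LDHB libraries overlap.

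Of the oxygen-sensing genes, EGLN1 was the member that was lower. EGLN1 (ENSG00000135766, chromosome 1, 231363751 to 231425044), which encodes the main HIF prolyl hydroxylase and is itself a known HIF target, was at 84.6, 86.4 and 83.6 CPM under SW-138. With SW-113 it was at 98.3, 97.6 and 102 CPM. The groups were well separated and the spread within each was small. Its log2 fold change was -0.23 ± 0.05 (SE; edgeR, Benjamini-Hochberg adjusted p = 0.0191), and -0.16 with scaling by total count alone, where it did not pass. It did not pass either without SW-138 replicate 1 or 3 or without any single SW-113 library (-0.24 to -0.21 over the 6 fits). The asparagine hydroxylase gene HIF1AN (-0.01, interval -0.13 to 0.11) and the hydroxylase gene EGLN2 (-0.07, interval -0.21 to 0.07) did not pass. The EGLN1 to HIF1AN ratio was 0.856, 0.963 and 0.856 with SW-138, against 1.00, 1.05 and 1.05 with SW-113. VHL, the substrate receptor of the ligase, was at 61.1, 46.2 and 55.2 CPM under SW-138, against 56.5, 52.2 and 49.8 CPM under SW-113. These libraries overlapped, and the log2 fold change was 0.04 with an interval of -0.17 to 0.24. EGLN3, with 5 to 20 counts per library, had an interval of -1.50 to 0.45, so a difference was not detectable at this depth.

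Of 10 tested HIF targets outside glycolysis, STC1 was higher in SW-138, BNIP3 was lower and 8 did not pass. The called share was 20%, beside 6.82% of all tested genes, and the median log2 fold change of the 10 was -0.0053. BNIP3 (ENSG00000176171, chromosome 10, 131966455 to 131982013), a mitophagy receptor of the BCL2 family, was at 96.3, 96.8 and 94.3 CPM under SW-138, against 126, 117 and 123 CPM under SW-113. The SW-138 libraries differed from each other by under 3 CPM and lay far below the rest. The log2 fold change was -0.35 ± 0.05 (SE), a 1.27-fold lower level (edgeR, Benjamini-Hochberg adjusted p = 0.0039), and it was called in all 6 fits that left out a library (-0.37 to -0.33). Its paralog BNIP3L was at -0.10, with an interval of -0.20 to 0.00, and did not pass. Their ratio, BNIP3 over BNIP3L, was 0.592, 0.575 and 0.591 with SW-138, against 0.734, 0.665 and 0.691 with SW-113.

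STC1 (ENSG00000159167, chromosome 8), which encodes the secreted glycoprotein stanniocalcin 1, was at 603, 428 and 521 CPM under SW-138, against 400, 334 and 376 CPM under SW-113. SW-138 replicate 2 lay close to the highest SW-113 library, and the groups did not overlap. The log2 fold change was 0.48 ± 0.11 (SE), a 1.40-fold higher level (edgeR, Benjamini-Hochberg adjusted p = 0.0287). The call was lost with robust estimation in edgeR (adjusted p = 0.105, where the 12 settings with all libraries ranged from 8.48e-13 to 0.105). It was also lost without SW-138 replicate 1 or 3 or without any single SW-113 library, where the log2 fold change over the 6 fits was 0.36 to 0.60. The angiogenic factor VEGFA was at 790, 624 and 809 CPM under SW-138, against 691, 617 and 587 CPM under SW-113. Its SW-138 replicate 2 lay inside the SW-113 range. It did not pass with all libraries (0.23 ± 0.09, edgeR, Benjamini-Hochberg adjusted p = 0.194) and did without SW-138 replicate 2 (0.34, edgeR, Benjamini-Hochberg adjusted p = 0.0109), with the block (0.0344) and with genes kept at 1 count in 1 library (0.00381), the 12 settings with all libraries ranging from 0.00381 to 0.281.

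NDRG1, a stress-responsive gene and the most abundant of these targets per kilobase, was at 641, 627 and 652 CPM under SW-138, against 605, 595 and 585 CPM under SW-113. The groups did not overlap, and it did not pass (0.11, interval 0.01 to 0.20, edgeR unadjusted p = 0.0527, Benjamini-Hochberg adjusted p = 0.23). The carbonic anhydrase gene CA9 was at 19.5, 16.5 and 21.5 CPM under SW-138, inside the range of 21.8, 14.4 and 18.8 CPM under SW-113. Its log2 fold change was 0.07 with an interval of -0.25 to 0.39, wide enough to hold a change in either direction. CA12, a second membrane carbonic anhydrase gene, was at -0.08, the HIF-induced ankyrin gene ANKRD37 at -0.21, the histone demethylase gene KDM3A at -0.14 and the transcriptional regulator gene CITED2 at 0.14. None of these 4 passed (edgeR adjusted p from 0.117 to 0.623).

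**Figure D4:**
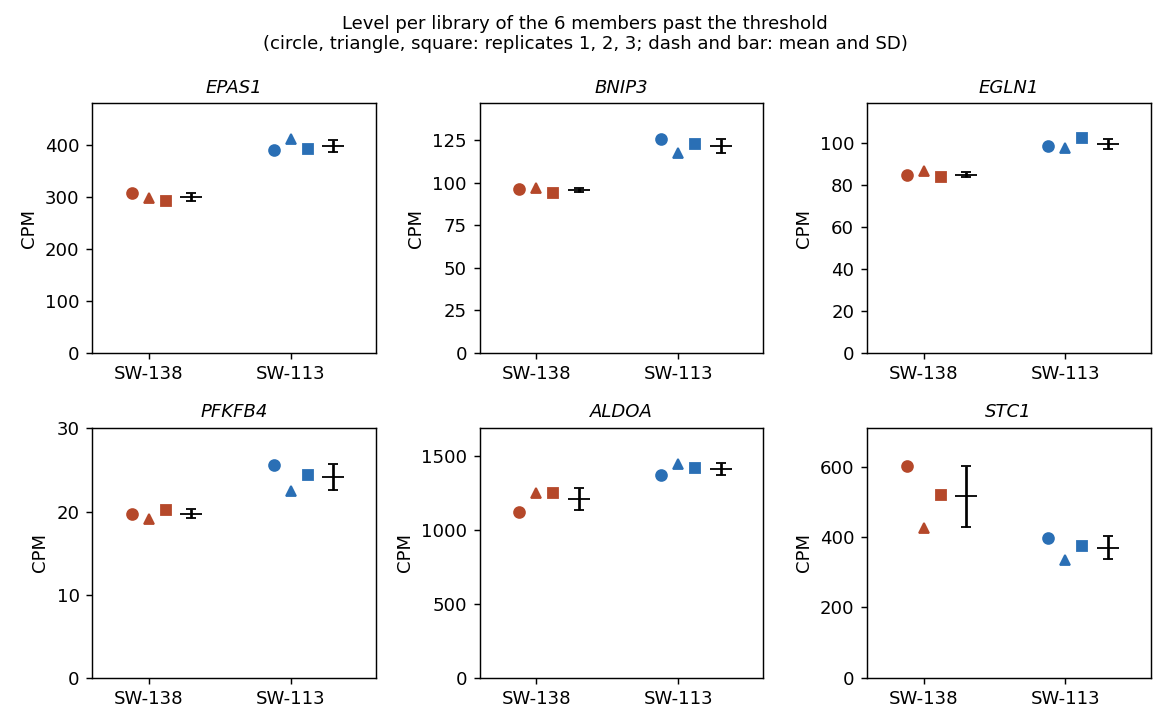
CPM in every library of the 6 members past the threshold, SW-138 at the left and SW-113 at the right of each panel, with the mean and SD (n = 3) beside the points. EPAS1, BNIP3, EGLN1, PFKFB4 and ALDOA lie lower with SW-138, and STC1 lies between 428 and 603 CPM under SW-138, above 400 CPM, the highest SW-113 library.

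The glucose transporters were not shown to differ. SLC2A1 (GLUT1), the transporter of basal glucose uptake, was at 189, 135 and 172 CPM under SW-138, against 169, 136 and 164 CPM under SW-113. Replicate 2 was the lowest library under each compound, and the groups overlapped almost wholly. The log2 fold change was 0.08 with an interval of -0.18 to 0.34, and that of the high-affinity transporter SLC2A3 0.09 with an interval of -0.10 to 0.28.

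Of the 15 glycolytic enzymes, 1, ALDOA, passed (6.67%, beside 6.82% of all tested genes). The log2 fold change was below 0 in 13 of the 15 with the main settings, beside 48.5% of all tested genes. The median of the 15 was -0.10. Of the preparatory enzymes below 0, PFKM (up to 0.0071) and PFKP (up to 0.038) lay above 0 in at least 1 other setting. For the payoff enzymes closest to 0 the sign depends on scaling too, so the count of 13 holds for the main settings only. Groups did not overlap in 10 of the 15, 9 lower and 1 higher, beside 27.9% of all tested genes (15.4% lower, 12.4% higher). ALDOA (ENSG00000149925, chromosome 16, 30064164 to 30070457), the main fructose-bisphosphate aldolase, was at 1123, 1251 and 1252 CPM under SW-138, against 1371, 1450 and 1418 CPM under SW-113. All SW-138 libraries were lower, replicate 1 most. The log2 fold change was -0.23 ± 0.05 (SE; edgeR, Benjamini-Hochberg adjusted p = 0.0484). This call was lost with 3 other scalings, with a filter at a mean of 5 CPM, with length and GC trends removed (-0.23 to -0.16 over these and the other settings) and without any single library other than SW-138 replicate 2 (-0.25 to -0.17).

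In the preparatory phase the liver-type phosphofructokinase PFKL came next, at 110, 111 and 116 CPM under SW-138, against 127, 126 and 128 CPM under SW-113. The groups were clearly apart and it did not pass (-0.18 ± 0.05, edgeR, Benjamini-Hochberg adjusted p = 0.0515). It was called by 7 of the 12 other settings with all libraries (adjusted p from 0.0162 to 0.16). In the edgeR fits that left out a library it was called in 0 of 6 (adjusted p from 0.07 to 0.175). The platelet-type PFKP was the most abundant phosphofructokinase per kilobase and PFKM the second, with log2 fold changes of -0.03 and -0.06 and overlapping libraries. The PFKL to PFKP ratio was 0.322, 0.335 and 0.312 with SW-138, against 0.357, 0.359 and 0.360 with SW-113. HK1, the housekeeping hexokinase, was at 248, 234 and 258 CPM under SW-138, against 215, 215 and 225 CPM under SW-113. Its libraries did not overlap and it did not pass (0.18 ± 0.05, edgeR, Benjamini-Hochberg adjusted p = 0.0817), while 5 of the 12 other settings called it, DESeq2 among them (adjusted p = 0.0276, range over the 12 of 0.0208 to 0.0723), as did the fit without SW-138 replicate 2 (0.0332). The inducible hexokinase HK2 was at 136, 129 and 143 CPM under SW-138, against 130, 121 and 135 CPM under SW-113. These overlapped, with a log2 fold change of 0.08 and an interval of -0.04 to 0.21. The isomerase genes GPI (-0.13) and TPI1 (-0.16) and the brain-type aldolase gene ALDOC (-0.12) lay below 0 and did not pass.

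With the main settings the 6 payoff enzymes all lay below 0 and none passed. Their median was -0.10, and -0.038 with scaling by total count alone, so the sign of those closest to 0 depends on scaling. The mutase PGAM1 was at -0.19 (edgeR, Benjamini-Hochberg adjusted p = 0.108) and was called in 3 of the 12 other settings with all libraries, whose adjusted p ranged from 0.0222 to 0.246. These were DESeq2 (0.0495), the block (0.0222) and genes kept at 1 count in 1 library (0.0268). Of the other payoff enzymes, the neuronal enolase ENO2 was at -0.14, the kinase PGK1 at -0.10 and PKM at -0.04. GAPDH was at 3672, 3894 and 3875 CPM under SW-138, against 3983, 4030 and 4249 CPM under SW-113. Its highest SW-138 library lay just under the lowest SW-113 one, and the log2 fold change was -0.10 with an interval of -0.20 to 0.00. ENO1, at -0.0018 with an interval of -0.10 to 0.10, was the member closest to 0. Gene counts do not separate the PKM splice forms, and several glycolytic genes have processed pseudogene copies that could take a share of their reads, so small differences in them are uncertain.

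Of the PFKFB genes, whose bifunctional enzymes set the level of the phosphofructokinase activator fructose 2,6-bisphosphate, PFKFB4 was lower. PFKFB4 (ENSG00000114268, chromosome 3, 48517684 to 48562015) is a known HIF target and was at 19.8, 19.1 and 20.2 CPM under SW-138, against 25.6, 22.5 and 24.4 CPM under SW-113. The SW-138 libraries were close together below all SW-113 libraries. On the log2 scale the difference was -0.29 ± 0.07 (SE), a 1.23-fold lower level (edgeR, Benjamini-Hochberg adjusted p = 0.0296), and -0.23 with scaling by total count alone, where it did not pass. It did not pass either without SW-138 replicate 1 or 3 or SW-113 replicate 1 or 3 (-0.35 to -0.25 over the 6 fits). PFKFB3, the most abundant of the family here, was at 49.8, 43.6 and 50.6 CPM under SW-138, against 53.7, 46.7 and 48.3 CPM under SW-113. These overlapped, and the log2 fold change was -0.04 with an interval of -0.21 to 0.12. The PFKFB4 to PFKFB3 ratio was 0.397, 0.438 and 0.40 with SW-138, against 0.477, 0.481 and 0.506 with SW-113. PFKFB2, near 3 CPM, did not pass (0.23, interval -0.15 to 0.60).

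Of 6 genes of lactate and pyruvate handling, 0 passed in edgeR, with 3 at an unadjusted p under 0.05 (beside 3773 of all 16905 tested genes), and 0 passed in DESeq2 or limma-voom. LDHA, the isoenzyme tied to lactate production, was at 1136, 1134 and 1152 CPM under SW-138, against 1267, 1172 and 1319 CPM under SW-113. The groups did not overlap, and the log2 fold change was -0.14 with an interval of -0.25 to -0.02 (edgeR, Benjamini-Hochberg adjusted p = 0.193). LDHB was at 753, 810 and 796 CPM under SW-138, against 807, 863 and 832 CPM under SW-113. Its libraries overlapped slightly, and the log2 fold change was -0.09. The proton-linked lactate carriers came next. SLC16A1 (MCT1) was at 217, 196 and 220 CPM under SW-138, against 191, 189 and 183 CPM under SW-113, with no overlap. Its log2 fold change was 0.17 (edgeR, Benjamini-Hochberg adjusted p = 0.11), and it passed without SW-138 replicate 2 (0.0277), with scaling by total count alone (0.0328) and with the block (0.0394), the 12 settings with all libraries ranging from 0.0328 to 0.135. SLC16A3 (MCT4) was at 177, 137 and 188 CPM under SW-138, against 183, 149 and 174 CPM under SW-113, fully overlapping, at -0.01 with an interval of -0.26 to 0.24. It overlaps CSNK1D on the opposite strand, whose mean count was 94.2% of its own, and the sources used here do not give the strand setting. By the same measure YOD1 opposite PFKFB2 stood at 923.5%, UFSP2 opposite ANKRD37 at 256%, NDUFB8 opposite HIF1AN at 54.2%, SENP1 opposite PFKM at 37.1%, ARHGEF39 opposite CA9 at 28.5% and PNMA2 opposite BNIP3L at 21.0%, while SPTSSA (11080%), AC005726.1 (18.8%) and UCN2 (16.4%) share a strand with EGLN3, ALDOC and PFKFB4 in that order. These overlaps are of whole gene spans, and shared exons were not looked up, so the percentages do not measure reads counted to the wrong gene. The values of these members are uncertain where reads of the partner were counted to them. PDK1, which inhibits pyruvate dehydrogenase, was at 54.4, 62.0 and 54.7 CPM under SW-138, against 58.6, 56.6 and 59.6 CPM under SW-113. The libraries overlapped, with a log2 fold change of -0.03 and an interval of -0.17 to 0.10. Its relative PDK3, at 4.01 ± 0.461 CPM under SW-138, against 5.15 ± 0.266 CPM under SW-113, was at -0.36 and did not pass (edgeR, Benjamini-Hochberg adjusted p = 0.111).

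**Figure D5:**
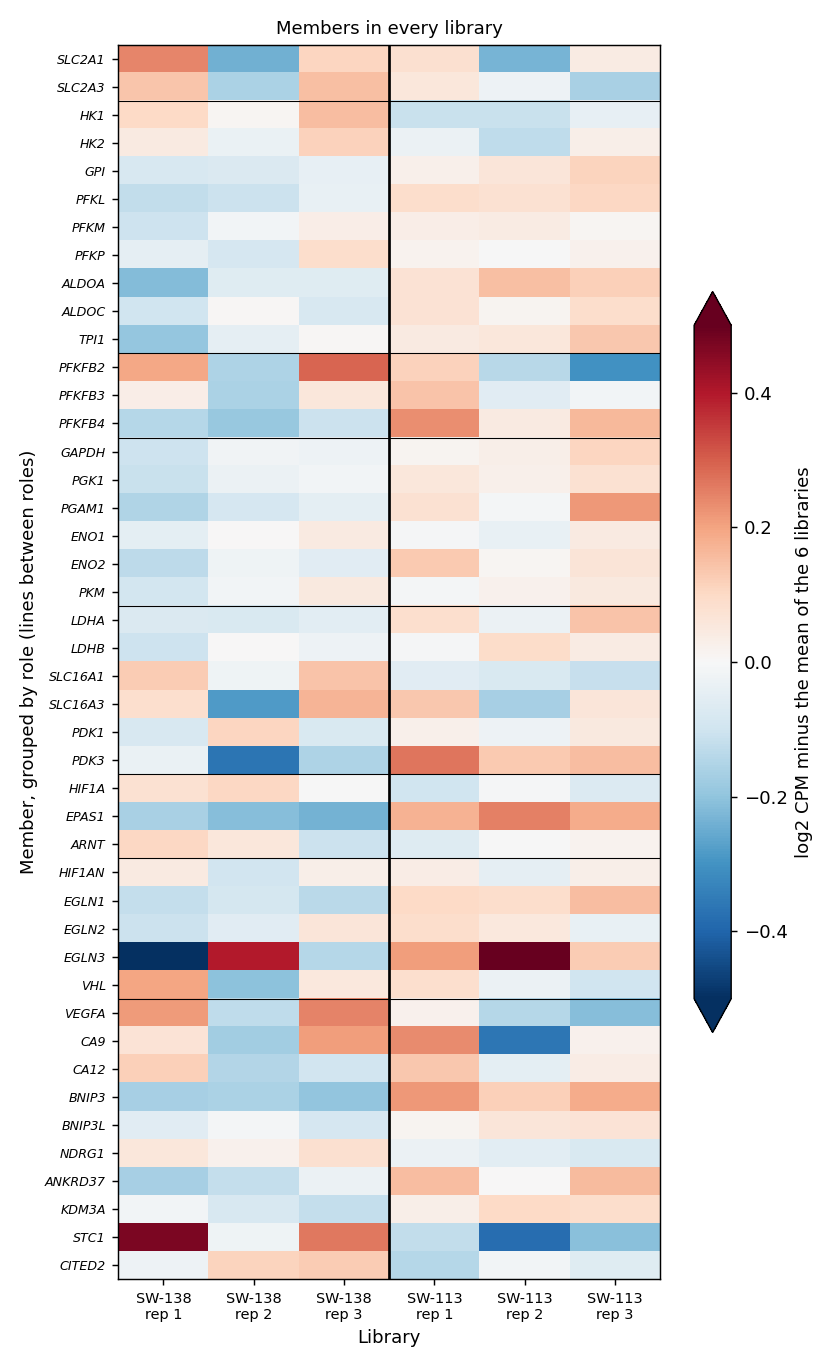
Log2 CPM of each tested member minus its mean over the 6 libraries, with SW-138 libraries at the left of the black line and SW-113 libraries at the right, and members grouped by role. EPAS1 and BNIP3 are below their mean in all 3 SW-138 libraries and above it in all 3 SW-113 libraries, while SLC2A1 and SLC16A3 are lowest in replicate 2 of each compound.

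Genes of the same pathways that are not among the 46 were read from the same fit. Of 83 tested, 16 were called, 7 higher and 9 lower (19.3%, beside 6.82% of all tested genes), with a median log2 fold change of -0.025. The lists were chosen with earlier results of these data known. The median standard error was 0.065 over the 83 and 0.092 over all tested genes, and its part in this share and those of the single lists was not tested. Without SW-113 replicate 3 the call of PC alone was made, beside 1.74% of all genes, while 21 list genes were called without SW-138 replicate 2, beside 9.39%. In the list of pyruvate entry and lactate export, 2 of 15 were higher and 1 was lower (20%, beside 6.82% of all tested genes). PC, the pyruvate carboxylase that feeds oxaloacetate to the mitochondrion, was at 35.6, 34.1 and 36.3 CPM under SW-138, against 22.3, 22.6 and 24.7 CPM under SW-113. Its groups were far apart, at 0.61 ± 0.06 (SE; edgeR, Benjamini-Hochberg adjusted p = 0.00123), and was called in all 6 fits that left out a library. PDP1, a phosphatase that reactivates pyruvate dehydrogenase, was higher (0.28 ± 0.07), and MPC2, a subunit of the mitochondrial pyruvate carrier, was lower (-0.26 ± 0.07). Both calls were lost without SW-138 replicate 1 or 3 or SW-113 replicate 3, that of PDP1 also without SW-113 replicate 1, and that of MPC2 also without SW-113 replicate 2 or with scaling by total count alone.

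Among 15 tested other glycolysis and sugar genes, TIGAR was lower and PGM2 higher (13.3% called, beside 6.82% of all tested genes). TIGAR, a p53-induced fructose-2,6-bisphosphatase, was at 22.2 ± 1.23 CPM under SW-138, against 28.3 ± 1.18 CPM under SW-113 (SD, n = 3 each; -0.35 ± 0.07, SE; edgeR, Benjamini-Hochberg adjusted p = 0.0123). Its groups did not overlap, and leaving out SW-113 replicate 2 or 3 ended the call. The phosphopentomutase gene PGM2 (0.20 ± 0.05) lost its call whichever library was left out. Of 15 tested genes of the VHL ligase, HIF partners and coactivators, 1 was higher and 4 were lower (33.3%, beside 6.82%). ARNT2, a paralog of ARNT, was higher (0.30 ± 0.06), while RBX1 (-0.26 ± 0.06) and the elongin genes TCEB2 (ELOB, -0.26 ± 0.07) and TCEB1 (ELOC, -0.25 ± 0.07), which encode ligase subunits, were lower. The fourth lower gene was GNB2L1 (RACK1, -0.23 ± 0.05), a ribosome-bound scaffold reported to promote HIF1A turnover. TCEB1 was named after its values were seen. Without SW-138 replicate 1 or 3 or SW-113 replicate 2 or 3 none of these 5 passed. Without SW-113 replicate 1 the calls of ARNT2, RBX1 and TCEB2 were also lost, and TCEB1 lost its call whichever library was left out. With scaling by total count alone 4 of the 5, RBX1, TCEB1, TCEB2 and GNB2L1, lost their calls. TCEB1 and TCEB2 lost theirs with scaling by DESeq2 size factors too, and TCEB2 with upper-quartile scaling. TCEB2 and GNB2L1 also lost theirs with length and GC trends removed.

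The 38 tested further HIF targets held 3 higher and 3 lower genes (15.8%, beside 6.82% of all tested genes). The lower ones were the cyclin gene CCNG2 (-0.32 ± 0.06, SE), the mitochondrial adenylate kinase gene AK4 (-0.28 ± 0.05) and FAM162A (-0.27 ± 0.06). LOX, the lysyl oxidase that cross-links collagen, was higher at 0.36 ± 0.07, with 189, 159 and 167 CPM for SW-138 and 141, 124 and 136 CPM for SW-113. MAFF, named after its values were seen, was also higher (0.24 ± 0.06). Without SW-113 replicate 3 none of these 5 named genes passed. Leaving out SW-113 replicate 1 ended the calls of CCNG2, AK4, FAM162A and MAFF, and SW-113 replicate 2 those of LOX, FAM162A and MAFF. Leaving out SW-138 replicate 1 ended those of LOX, FAM162A and MAFF, and SW-138 replicate 3 those of AK4 and MAFF.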

How the data were processed

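RNA from 6 HT1080 libraries, 3 per compound, was sequenced after ribosomal RNA depletion, as the labels' protocols state. The authors deposited a table of expected counts per gene and library (estimates that need not be whole: 10.6% to 11.6% of values were not), with 0 further sample columns. Build GRCh38, RSEM 1.3.3, Bowtie2 2.5.4, DESeq2 1.42.0 and Trimmomatic 0.39 are listed, with no role or order, in the submitters' processing notes. The sources used here give neither the annotation nor the strand setting.

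Counts were rounded, filtered with filterByExpr and scaled by TMM. SW-138 was compared with SW-113 by the edgeR 4.0.16 quasi-likelihood test (R 4.3.3) with no block, adjusted over all 16905 tested genes by Benjamini-Hochberg at 0.05. The fit was also run on counts simulated from its own means and dispersions. Recovery was required there for the largest simulated fold alone, so that check does not cover changes as small as those of the members. Standard errors and 95% intervals (centred on the edgeR value) used limma-voom (limma 3.58.1). Lengths, coordinates and gene types came from GENCODE 29, and promoter windows from RefSeq GRCh38.p14. Members, their roles and the gene lists were chosen with earlier results of these data known. Values per library are given for members past the threshold, the most abundant of each role, fixed HIF and glycolysis genes and some others near the threshold. Other lists are given by at most 4 called genes with the smallest p, except where stated. Of the called list genes, 1 is not reported here by name. In the VHL list, 3 genes were found under older symbols. Alternatives were other scalings, filters, tools (DESeq2 1.42.0, limma-voom), a replicate block, single libraries left out, and length and GC trends removed.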

Additional observations from a re-analysis of the deposited data

How the results depend on the processing

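Of the 6 called members, EPAS1 and BNIP3 were called under every alternative run, and no called member changed sign. Of the 38 that did not pass, 12 changed sign in at least 1 setting, without passing in it. The replicate block called 13 members (5 higher, 8 lower) and 2363 genes in all, against 6 and 1153. It added HK1, PFKL, TPI1, PGAM1, SLC16A1, VEGFA and CITED2 and lost none. The labels do not tie equal replicate numbers to a shared culture. Deviations from the group means correlated at 0.0492, 0.206 and 0.0512 over all tested genes for replicates 1, 2 and 3. Over the members alone these correlations were 0.531, 0.671 and -0.302. Not every library correlated best with its own number. Keeping genes with 1 count in 1 library gave 2060 of 31501 tested genes and 8 of 46 members. An adjusted p under 0.1 gave 2012 of 16905 tested genes and 8 of 44 members. Single libraries left out gave 303 to 1616 genes in all (1.74% to 9.39% of the genes then tested). They gave 2 to 9 of the 44 tested members and 1 to 21 of the 83 tested genes of the other lists. In these fits the median log2 fold change ranged from -0.10 to -0.051 for lactate and pyruvate genes and from -0.089 to 0.046 for HIF targets. With scaling by total count alone the medians were -0.053 for preparatory and -0.038 for payoff enzymes, 0.00623 for lactate and pyruvate genes, -0.0047 for oxygen sensing and 0.058 for HIF targets. The scaling shifts every gene alike. With length and GC trends removed the preparatory median was -0.063, against -0.12, and KDM3A passed. Keeping genes at a mean of 5 CPM gave -0.16 for the PFKFB genes and -0.021 for lactate and pyruvate genes, since the least abundant member of each was dropped. With the union of exons as length, 7 of 8 roles had the same most abundant member, and STC1 replaced NDRG1. Depth limits EGLN3, ADM and ANGPTL4.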

Other observations

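In 13 of the 44 tested members (29.5%) replicate 2 was the lowest library under both compounds, beside 17.8% of all tested genes, and in 12 members (27.3%) replicate 3 was the highest under both, beside 10.6%. The 13 included the glucose transporter SLC2A1, the lactate carrier SLC16A3, the carbonic anhydrase CA9 and STC1. SLC2A1 in replicate 2 was at 74.8% of the mean of replicates 1 and 3 with SW-138 and at 81.7% with SW-113. SLC16A3 was at 75.1% with SW-138 and 83.4% with SW-113, CA9 at 80.4% with SW-138 and 71.1% with SW-113, and STC1 at 76.2% with SW-138 and 86.2% with SW-113. These positions were tabulated after the data were seen. EPAS1 and BNIP3 were not among the 13. SW-138 replicate 2 was the shallowest library (32771670 counts) and SW-113 replicate 2 the deepest (50871623), and the part of culture or handling in this pattern was not tested.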
